A study of Mus musculus with 9 samples.

Results

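MicroRNA loci of the mouse trigeminal ganglion (TG), the ganglion that holds the sensory neurons of the face and jaw, were examined in total RNA. The loci were the transcripts that GENCODE release 21 for mouse classes as microRNA and names Mir, and that were listed above 0 FPKM (fragments per kilobase of transcript per 1 M fragments) in at least 5 of 9 libraries. Of 1174 such microRNA loci in the table of other noncoding RNA, 856 met this rule, out of 142497 transcripts in the series. The loci were thus chosen by their FPKM values in these libraries, and their presence is not a result. The rule gave 658 loci above 0 in all 9 libraries. The 42 loci above 0 in exactly 5 libraries had mean levels of 0.00292 to 0.18 FPKM (median 0.0666), and the 31 loci left out with exactly 4 had 0.00784 to 0.429 FPKM (median 0.0544).

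All animals were wild-type (WT) male C57BL/6 mice aged 8 weeks, with 10 µl injected on 1 side into the temporomandibular joint (TMJ). The saline group (replicates 1 to 3, labelled day 3) received saline, and the CFA3D group (replicates 1 to 3, day 3) and the CFA6D group (replicates 4 to 6, day 6) received complete Freund's adjuvant at 5 mg/ml, which inflames the joint. Each library pooled TG punches from 3 mice, so n = 3 pools per group, and no day 6 saline group was analysed here. P-values therefore measure the spread between pools.

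A microRNA is cut from a hairpin in a longer primary transcript. In the nucleus the Microprocessor of Drosha and Dgcr8 releases the hairpin, Dicer1 cuts it to the mature microRNA, and an Argonaute protein such as Ago2 carries the mature strand to messenger RNAs that match its seed, bases 2 to 8. Many microRNAs lie in introns of a host gene and share its promoter, and some short introns form the hairpin themselves. A FPKM of a locus here is the level listed for its hairpin in total RNA. Reads of primary and host transcripts can count towards it, and it does not measure the mature microRNA. How many of those reads were counted is not given in the sources used here.

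RefSeq (GRCm38.p6) gave a mature sequence for 742 of the 856 loci. The hairpin of Mir3101, the only locus to pass the adjusted threshold below, is shown first, with its mature strands in capitals. It lies at chr7:27176006-27176093 on the minus strand of GRCm38.
Mir3101 hairpin: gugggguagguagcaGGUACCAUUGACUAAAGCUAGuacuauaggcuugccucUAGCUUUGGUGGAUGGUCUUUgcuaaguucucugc

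Mature sequences with the seed in capitals are given for loci on which the results turn. The first pair comes from Mir3101, the next set from the Mir183 sensory cluster, and the rest from loci that were called, high in FPKM or close to their host.
miR-3101-5p: gGUACCAUugacuaaagcuag
miR-3101-3p: uAGCUUUGguggauggucuuu
miR-183-5p: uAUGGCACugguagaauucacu
miR-96-5p: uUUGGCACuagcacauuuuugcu
miR-182-5p: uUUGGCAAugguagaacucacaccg
miR-130a-3p: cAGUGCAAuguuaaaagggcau
miR-1192: aAACAAACaaacagaccaaauu
miR-338-3p: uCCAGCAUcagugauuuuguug
miR-22-3p: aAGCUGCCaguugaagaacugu
miR-3072-5p: aGGGACCCcgagggagggcagg
miR-1897-3p: uCAACUCGuucuguccggugag
These 11 seeds all differ. Over 1252 mature sequences of the loci there were 1044 seeds, of which 136 were held by several loci.

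The step at which low FPKM values piled up gave 30.01 to 42.2 M read pairs behind the FPKM values of a library, which is not the number sequenced, and 1 read across a whole locus was worth 0.0785 to 0.11 FPKM. TG markers were present in every group, with sensory neuron markers summing to 1641 to 2358 FPKM and Schwann cell markers to 2472 to 3269. Saline replicate 3 and CFA6D replicate 6 stood apart. Pituitary markers reached 10447 FPKM in a saline library against 8.43 in another, and neutrophil and marrow markers reached 2420 FPKM in a CFA6D library against 109 in another. Their part in the results was not tested, except by leaving these 2 libraries out.

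Most loci lay inside introns. Of the 856, 454 (53.0%) were within an intron of a host gene on the same strand, 173 overlapped an exon of a coding or lncRNA transcript, and 49 overlapped only an exon of another transcript form of a coding host, such as a retained intron. A further 60 lay in no host but opposite a gene on the other strand, and 120 had neither. Among these unhosted loci, 9 overlapped a gene of their own strand in part. The 676 hosted loci fell in 564 genes, of which Sfmbt2 held 41 loci and Mirg, a lncRNA of the imprinted Dlk1-Dio3 region, held 14.

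Listed levels were low and differed by position. The median locus had a mean depth of 4.28 reads across its length, 240 loci reached 10 reads, and 232 stayed under 1. Intronic loci had a median of 0.582 FPKM, and exon-overlapping loci 0.0689 FPKM. As a share of host FPKM the median was 6.96% for intronic and 1.54% for exon-overlapping loci. Across loci, level followed host level for introns (Spearman rho 0.57, n = 454) more than for exons (rho 0.21, n = 173). By kind of host, rho for exons was 0.003 in coding hosts (n = 116) and 0.45 in lncRNA hosts (n = 57). For introns it was 0.59 (n = 415) and 0.68 (n = 39). The median share of host FPKM was 0.806% and 6.00% for exons, and 6.27% and 23.2% for introns, in the same order. These are descriptions across loci that share libraries and host reads. The division of reads between a locus and the host transcripts over it is not given in the sources used here. Its part in these differences by position was not tested.

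**Figure D1:**
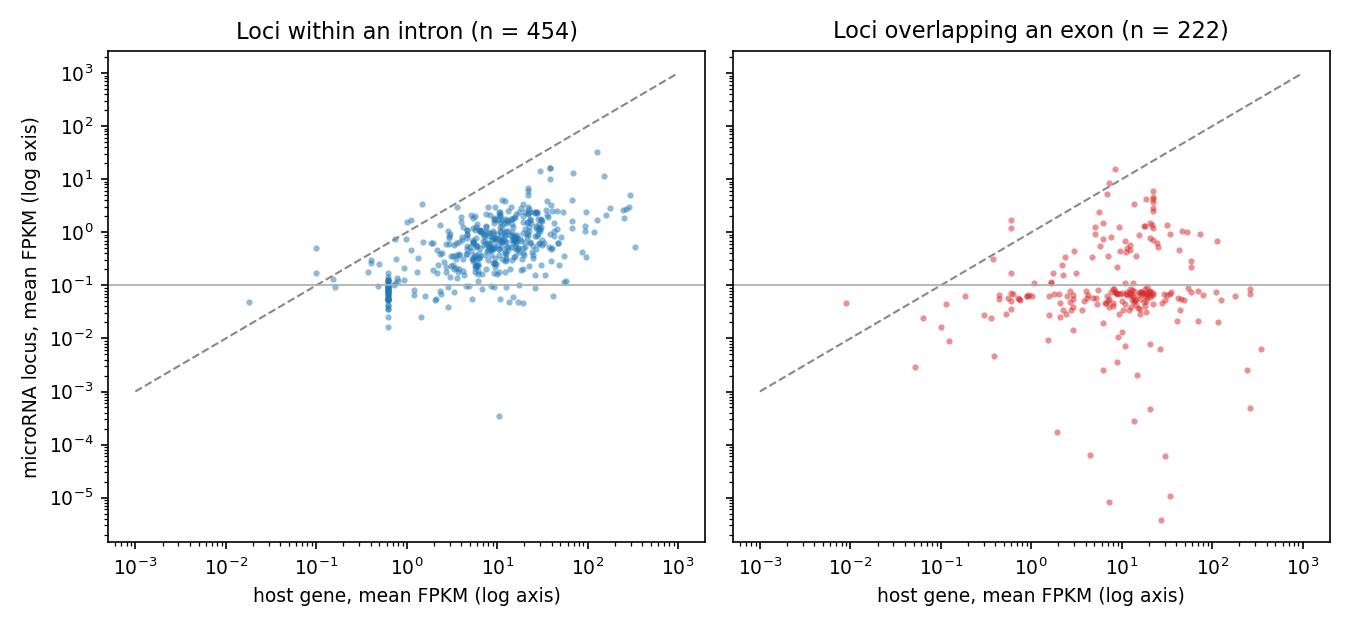
Mean FPKM of each microRNA locus (vertical, log axis) against mean FPKM of its host gene (horizontal, log axis) for 454 intronic loci and for loci that overlap an exon. Each point is a locus over 9 libraries, the dashed line marks equal levels and the grey line 0.1 FPKM, and intronic points rise with their host (rho 0.57).

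The locus with the highest mean was Mir8114, described below with the loci that were nearly absent from some libraries. Next came Mir5125, in an intron of Srrm2, a splicing factor of nuclear speckles. It had 35.9, 33.2 and 31.3 FPKM in saline, 33.2, 24.6 and 30.9 on CFA3D, and 30.01, 34.5 and 36.9 on CFA6D. The groups overlapped.
Mir341 and Mir1188, in an intron of the imprinted lncRNA Rian, were at 14.3 to 19.96 and 13.6 to 18.9 FPKM. Mir22 in an exon of Mir22hg ranged from 10.5 to 19.0 FPKM, Mir7052 in Josd2 from 12.3 to 16.8, Mir23b in 2010111I01Rik from 10.2 to 15.9 and Mir338 in Aatk, a kinase gene, from 7.15 to 15.9. None of these 8 was called in any comparison.

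The main comparison asked which loci differed after CFA. Calls needed a limma p under 0.05, unadjusted, and a difference no smaller than 1 on the scale of log2(FPKM + 0.1), which understates the change of low loci. Of the 856, 612 had a mean of at least 0.1 FPKM and were tested among 7989 transcripts. In bulk tissue, fewer cells of a type and less RNA per cell cannot be told apart. On CFA3D, 19 loci were called (10 higher, 9 lower), which was 3.10% of those tested against 2.27% of all transcripts tested. On CFA6D, 40 were called (21 higher, 19 lower), 6.54% against 2.84%. Between CFA6D and CFA3D, 26 were called (13 in each direction), 4.25% against 2.52%, and with both days together against saline 20 (8 higher, 12 lower), 3.27% against 1.95%. Over all transcripts, 1.28% were called higher and 0.989% lower on CFA3D, 1.61% and 1.23% on CFA6D, 1.26% and 1.25% between the days, and 1.14% and 0.814% with both days.

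Median log2 fold changes were -0.02 on each day, beside 0.02 (CFA3D) and -0.02 (CFA6D) over all transcripts tested. Groups did not overlap at 58 loci on CFA3D, 9.48% against 8.67% of all transcripts, and at 65 on CFA6D, 10.6% against 11.0%. By limma with Benjamini-Hochberg adjustment over the table, 0 loci passed 0.05 on CFA3D, where 41 had an unadjusted p under 0.05 (4.44% of all transcripts did). Mir3101 passed on CFA6D, against CFA3D and with both days together, where 0.0501%, 0.0501% and 0.0125% of all transcripts did, and no other locus passed.

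Mir3101 lies within the body of Rab4b, a gene for a small GTPase of endosomal recycling. It overlaps exons of a retained-intron transcript and a processed transcript, and no exon of the coding transcripts. Mir3101 was at 0.037, 0.0439 and 0.0273 FPKM in saline, at 0.0204, 0.0226 and 0.021 on CFA3D, and at 3.87, 3.04 and 5.27 on CFA6D. The CFA6D libraries were all high and the other 6 all low, with no overlap. How reads were divided between a locus and the host transcripts over it is not given in the sources used here, and its part in the values of Mir3101 was not tested. As depth, the low libraries were listed at 0.228 to 0.398 of a read across the locus and the CFA6D libraries at 34.7 to 60.3 reads.

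The difference was 4.90 ± 0.27 on the log2 scale (SE, limma adjusted p = 8.65e-05) on CFA6D and -0.16 ± 0.27 on CFA3D. CFA6D against CFA3D gave 5.06 ± 0.27 (limma adjusted p = 6.37e-05). Mir3101 met the mean of 0.1 FPKM only through CFA6D, as its group means were 0.036 in saline, 0.0213 on CFA3D and 4.06 on CFA6D, so it could enter the fit only by differing. With no such filter the limma adjusted p was 0.000588 on CFA6D, 0.000452 against CFA3D and 0.0593 with both days together. Because the low values lay below 1 read, the size rests on the pseudocount, from 2.26 with 1 FPKM to 6.45 with 0.01. With only transcripts of at least 1 FPKM in the fit, the limma adjusted p was 0.474.

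Rab4b differed little. Its sum of transcripts was 40.3, 28.2 and 25.01 FPKM in saline, 33.1, 31.4 and 35.8 on CFA3D, and 31.7, 31.1 and 31.1 on CFA6D. The 3 groups overlapped, with a log2 difference of 0.04 on CFA6D. Relative to Rab4b, Mir3101 was 4.86 higher on CFA6D (limma adjusted p = 0.000241). The retained-intron transcript over the locus was at 8.40, 8.85 and 1.72 FPKM on CFA6D and between 4.75 and 7.48 in the other libraries. Its lowest value fell in the library with the highest Mir3101, while 8.40 and 8.85 were above all saline and CFA3D values.

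**Figure D2:**
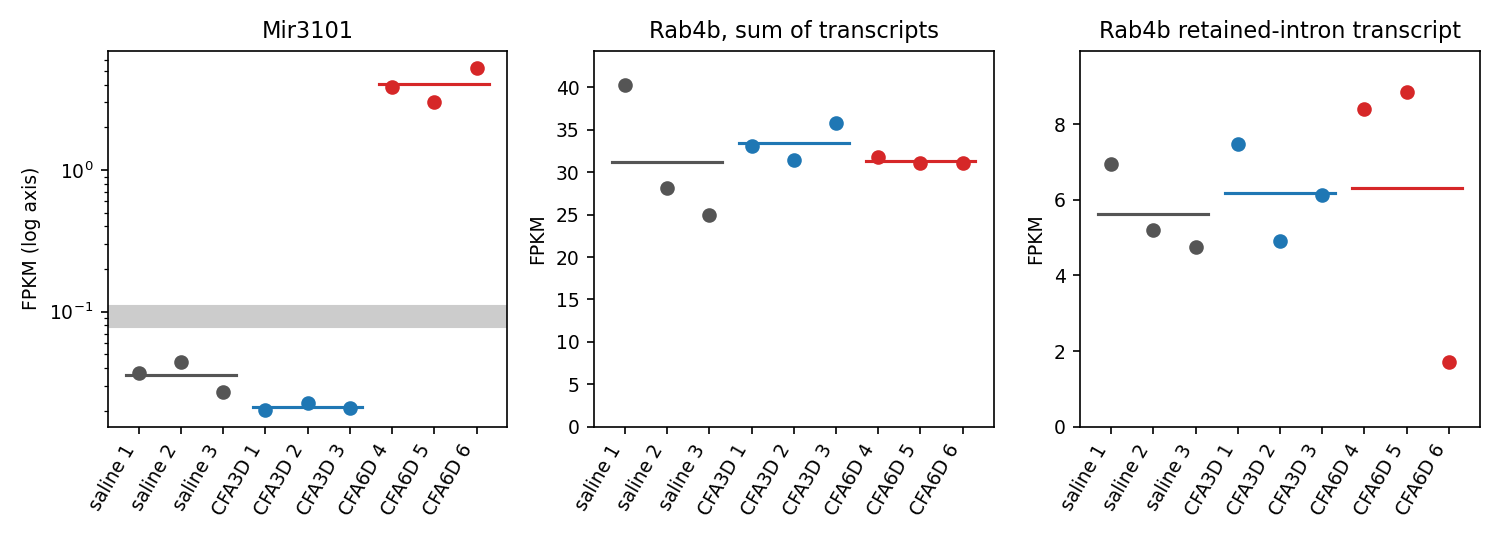
FPKM in each of 9 libraries of Mir3101 (left, log axis), of the sum of Rab4b transcripts (middle) and of the Rab4b retained-intron transcript (right), with points for libraries and lines for group means. The grey band is the worth of 1 read across a locus (0.0785 to 0.11 FPKM). The CFA6D libraries of Mir3101 sit above it and the other 6 below.

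A near-absence in some libraries was not unique to Mir3101. Of 200 loci that reached 20 reads in a library, 12 were under 1 read in another. By position these were 7 of 21 exon-overlapping loci, 2 of 3 on exons of other transcript forms, 2 of 126 intronic loci and 1 of 11 unhosted loci opposite a gene, which was Mir8114. These limits were chosen after the values were seen. For these 12 loci too, the division of reads between overlapping transcripts was not tested.
Mir8114, which also partly overlaps the first exon of Glul, the glutamine synthetase gene, was at 0.0535, 0.13 and 219 FPKM in saline, 0.158, 156 and 153 on CFA3D, and 0.0781, 0.11 and 0.0771 on CFA6D. High and low libraries stood side by side within saline and CFA3D, and Mir8114 was not called, while the Glul transcript kept to 160 to 228 FPKM in all 9.

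Mir1897, in an exon of the lncRNA Sox2ot, was at 0.0974, 16.6 and 28.0 FPKM in saline, 0.0685, 0.0715 and 0.08 on CFA3D, and 3.39, 16.1 and 13.5 on CFA6D. It was called lower on CFA3D (-4.71) and higher between CFA6D and CFA3D (5.72), though saline replicate 1, at under 1 read, lay just above the CFA3D libraries. Without saline replicate 2 or saline replicate 3 the CFA3D call was lost.
Mir3072, in an exon of Mirg, was at 5.03, 3.87 and 0.0184 FPKM in saline, 5.18, 3.09 and 5.30 on CFA3D, and 0.0146, 0.0237 and 0.0226 on CFA6D. All CFA6D libraries were low, and so was saline replicate 3. The log2 difference was -3.48 on CFA6D and -5.23 against CFA3D, with limma adjusted p-values of 0.70 and 0.597. Without saline replicate 3 the CFA6D difference was -5.23 (limma adjusted p = 0.000266), and without saline replicate 1 or saline replicate 2 it was -2.51 or -2.70 and no longer called. The log2 difference of Mirg was -0.04. Mir382, another exonic locus of Mirg, was under 1 read only in CFA6D replicate 6. Mir485 was under 1 read in saline replicate 1 and saline replicate 2 and at 0.0793 and 0.0849 FPKM, about 1 read, in CFA3D replicate 1 and CFA6D replicate 4. Mir410 was under 1 read in all libraries but saline replicate 2 and CFA3D replicate 2, which takes in the 4 low libraries of Mir3072.

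**Figure D3:**
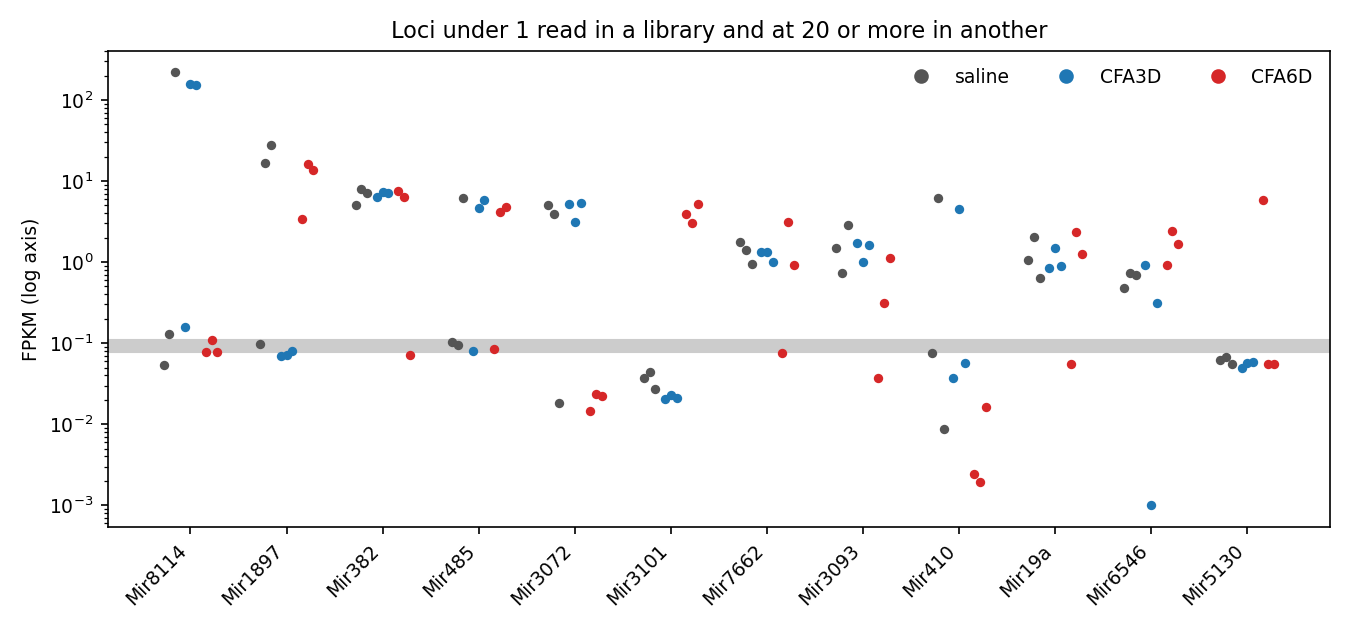
FPKM (log axis) in each of 9 libraries of the 12 loci under 1 read in a library and at 20 or more in another, coloured by group, with the grey band at the worth of 1 read (0.0785 to 0.11 FPKM) and a value of 0 drawn at 0.001. Mir3101 separates by group, and Mir8114 does not.

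Among other loci called on CFA6D, Mir7243, in an intron of the ephrin receptor gene Ephb1, was at 0.415, 0.501 and 1.11 FPKM in saline, 0.314, 0.385 and 0.184 on CFA3D, and 0.11, 0.0658 and 0.0873 on CFA6D. CFA6D lay below both other groups, by -1.95 ± 0.38 against saline (limma adjusted p = 0.548). As depth, its CFA6D libraries were listed at 1.31, 0.75 and 1.00 reads across the locus. Mir3087, in an 82-base intron of the lipid transporter gene Abca2, was at 0.356, 0.357 and 0.891 in saline, 0.569, 0.52 and 0.294 on CFA3D, and 1.37, 1.64 and 1.46 on CFA6D. CFA6D lay above both groups (1.42 ± 0.34 against saline).
Mir1192, in an intron of Klf9, a transcription factor gene that glucocorticoids induce, was at 1.51, 2.03 and 1.26 FPKM in saline, 1.55, 2.34 and 1.12 on CFA3D, and 3.48, 4.91 and 2.97 on CFA6D. All CFA6D values were above the rest, by 1.18 ± 0.29, and Klf9 differed by 0.53. Mir7020 in Aldh4a1 was higher (1.10) and Mir8103 in Osbpl7 lower (-1.04), with neither host differing by more than 0.06. Mir7020 was not called without saline replicate 2 (0.94), Mir1192 without CFA6D replicate 5 (0.99), and Mir8103 without saline replicate 3 (-0.86), CFA6D replicate 5 (-0.93) or CFA6D replicate 6 (-0.97). No locus in this paragraph had a limma adjusted p under 0.05. With a pseudocount of 1, the CFA6D calls of Mir7243, Mir3087, Mir1192, Mir7020 and Mir8103 against saline were all lost. Those of Mir7243, Mir7020 and Mir8103 were also lost on log2(approximate reads + 1).

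On CFA3D the 6 called loci with the smallest p were Mir5098 in Rest (1.57), Mir1897 (-4.71), Mir130a (-1.32), Mir7006 in Zfp512b (1.14), Mir320 (-1.40) and Mir7235 in Tbkbp1 (1.35). Leaving out 1 library could end each of these calls except that of Mir5098. Mir5098 was at 0.0158, 0.0808 and 0.133 FPKM in saline and 0.309, 0.315 and 0.657 on CFA3D, with a mean depth of 2.59 reads. Its CFA3D call was lost with a pseudocount of 1 and on log2(approximate reads + 1). Mir7006 was lost without saline replicate 1, CFA3D replicate 2 or CFA3D replicate 3 (0.76 to 1.00), Mir320 without saline replicate 1, saline replicate 3, CFA3D replicate 1 or CFA3D replicate 2 (-1.35 to -1.03), and Mir7235 without saline replicate 1, CFA3D replicate 1 or CFA3D replicate 3 (0.91 to 1.30). Mir130a, a microRNA of endothelial and blood cells with no host here, was at 1.35, 1.33 and 1.88 FPKM in saline, 0.739, 0.688 and 0.303 on CFA3D, and 0.857, 0.481 and 0.168 on CFA6D. All 6 CFA libraries were below the saline libraries, and the log2 difference was -1.32 ± 0.46 on CFA3D and -1.60 ± 0.46 on CFA6D. The CFA3D call was lost without saline replicate 3 (-1.16) or CFA3D replicate 3 (-0.98), and the CFA6D call without saline replicate 3 and CFA6D replicate 6 together (-0.95). Mir6540, in an intron of the growth-cone gene Gap43, was at 0.522, 0.401 and 0.532 in saline and at 0.483, 0.0349, 0.0323, 0, 0.162 and 0.0154 after CFA. It was called on each day and with both together (-1.71 ± 0.52). Without saline replicate 3 and CFA6D replicate 6 every one of these calls was lost, and on CFA3D the call held under 6 of 18 other settings. Against CFA3D, CFA6D was lower for Mir7213 in Pdgfb (-1.86) and Mir6417 (-1.23). Both calls were lost with a pseudocount of 1 and on log2(approximate reads + 1). Mir7213 was listed at 0, 0.263 and 0.456 of a read on CFA6D.

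The Mir183 cluster (Mir183, Mir96 and Mir182), known from sensory cells, was present as 3 of 3 loci. Mir183 was at 1.70, 2.20 and 1.62 FPKM in saline, 1.14, 0.97 and 0.599 on CFA3D, and 0.979, 0.432 and 1.03 on CFA6D. All saline values lay above all CFA values, with -0.98 ± 0.33 on CFA3D, just short of a call, and -1.15 ± 0.33 on CFA6D, which was called (limma adjusted p = 0.683). Without CFA6D replicate 5 the CFA6D difference was -0.80 and no longer called. Mir96 (-0.18) and Mir182 (-0.05) were not called on CFA6D, although the 3 are known as products of a shared primary transcript.

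The other lists were named from tissue background. With 3.10% of tested loci called on CFA3D and 6.54% on CFA6D, counts of 0 or 1 in lists of this size set none of them apart. Of 49 loci in the Dlk1-Dio3 imprinted region, which is rich in neuronal microRNAs, 44 were tested, the median level was 3.56 FPKM, and only Mir3072 was called (lower on CFA6D and against CFA3D). Of 17 neuronal loci, 11 were tested and 0 called. The highest was Mir137 at 2.02 to 6.55 FPKM. Of 21 loci of immune and blood cells, 14 were tested, and only Mir142b was called, higher on CFA6D than CFA3D (1.49), with 9.49 FPKM in CFA6D replicate 6 and 1.97 and 2.26 in the other 2. Without CFA6D replicate 6 its difference was 0.79 and not called, and the call was also lost without saline replicate 3 (1.49), CFA3D replicate 1 (1.11) or CFA3D replicate 3 (1.62). Its gene, Mir142hg, is on the opposite strand, and the kit in the labels is not stranded. Of 9 muscle loci, all were tested and 0 called, while muscle markers ran from 1.11 to 136 FPKM.
Seed families hold few loci each, and 6.54% of tested loci were called on CFA6D. The seed of miR-130a-3p (AGUGCAA) was held by 3 loci, all tested, with 2 called on CFA6D and 1 on CFA3D. It was picked after its count was seen, from 136 seeds held by several loci, so chance was not excluded. The counts of the let-7, Mir30 and Mir15 families set none of them apart. The let-7 seed (GAGGUAG) was held by 12 loci, of which 6 were tested and Mirlet7g alone was called on CFA6D (-1.72). The Mir30 seed (GUAAACA) was held by 5 loci, with 4 tested and Mir30c-1 called (1.45), and the Mir15 seed (AGCAGCA) by 8, with 7 tested and 0 called. Among the 7 Mir344 loci in introns of A230057D06Rik, Mir344c was lower (-1.32) and Mir344h-1 higher (1.03).

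The next comparison related loci to hosts. Of 560 host genes tested, 0 were called on CFA3D (background 0.474%), 3 on CFA6D (0.81%), 3 between the days (0.904%) and 2 with both days (0.445%), where 35, 97, 59 and 75 had a limma p under 0.05. These were 6.25%, 17.3%, 10.5% and 13.4% of the hosts, against 4.31%, 10.4%, 7.09% and 7.64% of all genes. On CFA6D the host genes called, named after their values were seen, were AA467197 (2.18), Adam8 (1.15) and Gm3764 (-1.31). AA467197, which holds Mir147, was at 0.0539, 0.107 and 0.0481 FPKM in saline and 0.401, 0.323 and 1.95 on CFA6D. Adam8, a metalloprotease of leukocytes, was at 10.4 FPKM in CFA6D replicate 6 and at 3.10 and 2.86 in the other 2. Both were highest in the library with most neutrophil and marrow markers. Without CFA6D replicate 6, AA467197 was still called (1.46) and Adam8 was not (0.56). Adam8 was also not called without saline replicate 2 (1.20) or saline replicate 3 (0.95). Gm3764 was at 17.6 FPKM in saline replicate 3 and at 5.29 and 3.64 in the other 2, and its call was lost without that library (-0.65) or without CFA6D replicate 4 (-0.81).
In these 3, Mir7062 in Adam8 was called higher (1.57) and Mir3093 in Gm3764 lower (-1.95), as their hosts were, while Mir147 was not called (0.59). Mir7062 was at 0.307, 0.00502 and 0 FPKM in saline and 0.308, 0.174 and 0.901 on CFA6D. Mir3093 was at 1.51, 0.729 and 2.90 in saline and 0.0367, 0.317 and 1.12 on CFA6D. For both loci, saline and CFA6D overlapped.

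Called loci differed by more than their hosts, as calling them required a size of at least 1. Of 30 intronic loci called on CFA6D, 25 had the sign of their host, but the median size was 1.33 for loci and 0.13 for hosts. Of 13 on CFA3D, 8 had the host's sign, with medians of 1.22 and 0.05. Host differences were under 0.5 in size for 25 of the 30 and for all 13. A limma p under 0.05 was found for 6 hosts on CFA6D and 0 on CFA3D. The share with the host's sign over all tested intronic loci was not computed, so these sign counts have no background. A direct test of locus minus host, over 3442 hosted transcripts, called 16 of 456 loci on CFA3D (3.51% against 2.41%), 27 on CFA6D (5.92% against 2.96%), 24 between the days (5.26% against 2.93%) and 12 with both days (2.63% against 2.03%). Only Mir3101 had a limma adjusted p under 0.05.

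**Figure D4:**
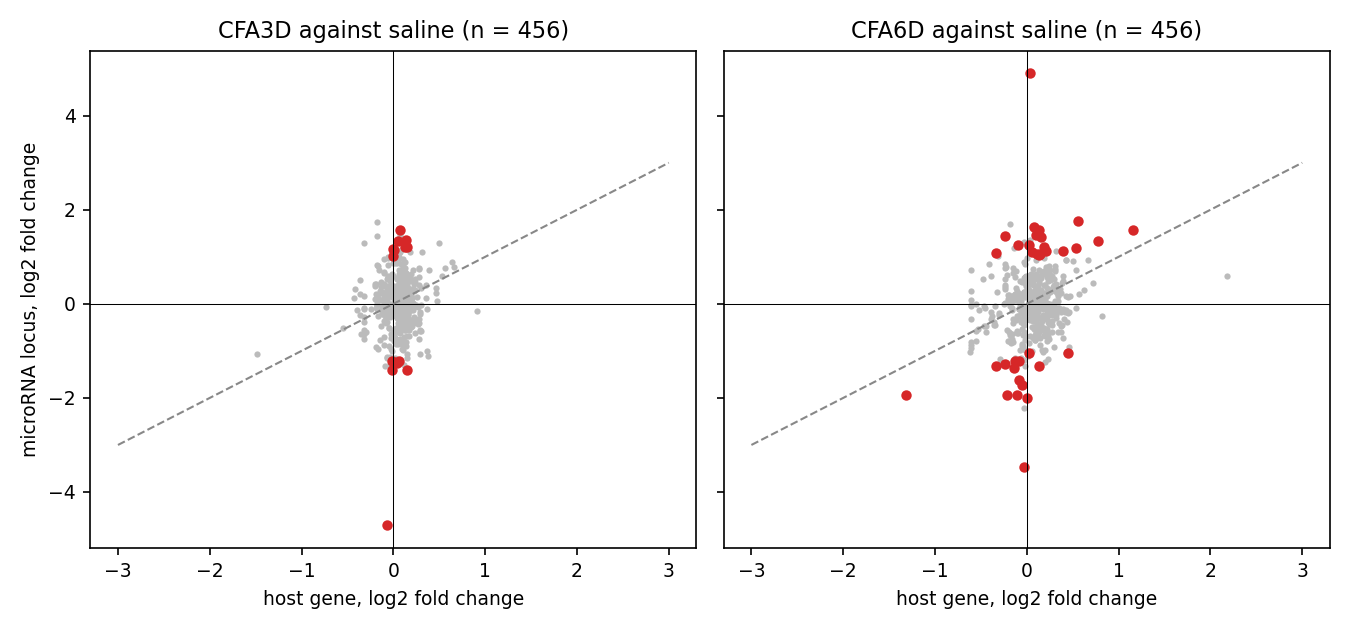
Log2 fold change of each locus (vertical) against that of its host (horizontal) on CFA3D and CFA6D, for 456 loci tested with their host. Red points are called loci, the dashed line marks equal change, and called points lie along the vertical axis rather than the line.

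Across the 9 libraries, loci tracked their hosts weakly. Over 456 pairs the median Pearson r was 0.12, with 284 positive (62.3%), and 26 pairs had an exact permutation p under 0.05, of which 23 were positive. After Benjamini-Hochberg adjustment 0 pairs passed. Intronic loci with a mean depth of at least 10 reads had a median r of 0.23 (n = 154), and exon-overlapping loci of that depth had -0.00 (n = 24).
Mir338 and Aatk had r = 0.90 and rho = 0.92 (exact permutation p = 0.00101 and 0.00131, adjusted p = 0.229 and 0.343), and r = 0.84 without the 2 libraries farthest from the median of Aatk. Mir1251 and the lncRNA Rmst, named for the smallest p of the 456 pairs, had r = 0.90 (0.86 without 2 libraries). The exact permutation p was 0.000331 (adjusted p = 0.151). Mir1251 had a mean depth of only 2.46 reads, against 131 for Mir338. Mir1192 and Klf9 had r = 0.83 (0.67 without 2), with an exact permutation p of 0.0069 (adjusted p = 0.327).

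**Figure D5:**
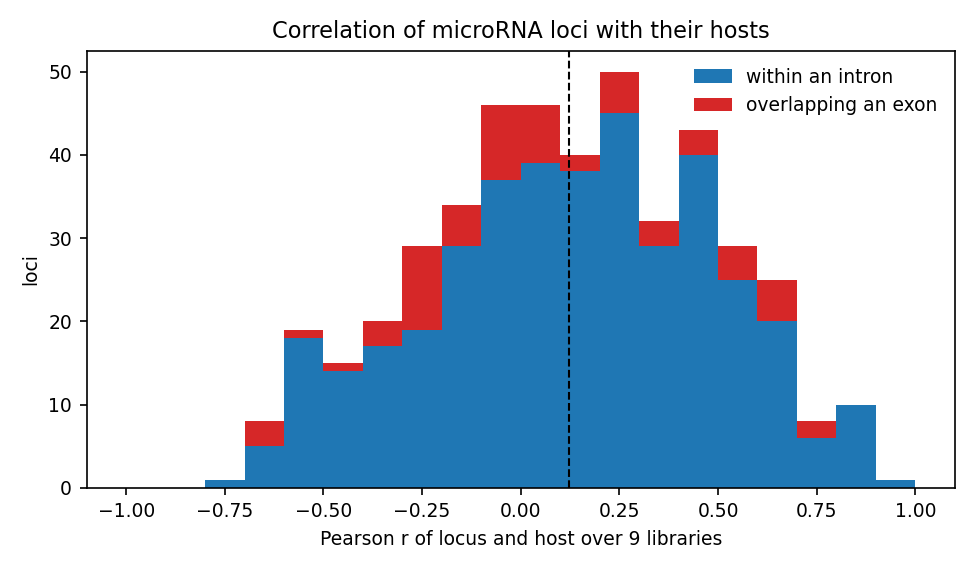
Number of loci by Pearson r with their host over 9 libraries, for 393 intronic loci (blue) and those overlapping an exon (red), with the median of 0.12 dashed. Of the intronic loci, 253 lie to the right of 0.

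Next came the microRNA processing genes. Of 27 listed, 25 were found and tested, and 0 were called in any comparison (background 0.341% on CFA3D, 0.596% on CFA6D, 0.782% between the days and 0.292% with both), with 0 on CFA3D and 2 on CFA6D at a limma p under 0.05, which 11.1% of genes in the mRNA table had on CFA6D. Drosha was at 12.02 to 14.1 FPKM in saline and 13.1 to 15.2 on CFA6D, and Dgcr8 at 7.68 to 9.48 and 7.31 to 8.34. Dicer1 stayed between 8.65 and 10.2 in all libraries. Ago2 was at 8.998, 8.13 and 7.64 FPKM in saline and 10.2, 9.91 and 10.6 on CFA6D, with no overlap and a log2 difference of 0.31 ± 0.12 (limma adjusted p = 0.36), and Tnrc6a, an Argonaute partner, differed by 0.24.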

How the data were processed

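The authors deposited FPKM values for each transcript in 9 libraries, with coding, long noncoding and other noncoding transcripts in separate tables. The paper's methods describe ribosomal RNA depletion, stranded libraries, trimming and mapping to GRCm38. The labels instead name an unstranded TruSeq kit, Bowtie 0.12.2 and build mm8, so reads from an opposite-strand gene may be counted. The tool that gave FPKM is not given in the sources used here. Annotation came from GENCODE M21 (GRCm38), matched on transcript name, which held 24532 of 24718 other noncoding transcripts.

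A host was a coding or lncRNA gene holding the locus on the same strand. Where several did (29 loci), the gene of highest mean level was taken. This replaced a rule that took coding genes first, and was chosen after values had been seen, because that rule had put Mir22 in Tlcd2 and not in Mir22hg. The earlier rule was run as an alternative. Host levels are sums of transcripts.

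Values were compared in limma 3.58.1 (R 4.3.3) on log2(FPKM + 0.1) with empirical Bayes moderation and a trend, over 9 libraries, for means of at least 0.1 FPKM. Depth was read from the step in low FPKM values. With a tolerance of 0.1 read, 58.4 to 63.4% of low values were whole, against 20.0% if evenly spread. Fits, the step and permutation tests were tested on simulated data. Correlations used all 362880 pairings. Other steps ran in Python 3.11.15 with pandas 2.3.3, numpy 2.4.6, scipy and matplotlib 3.10.9.

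Named loci were Mir3101, the 8 of highest mean, up to 6 called loci per comparison by smallest p, and up to 4 per list. Seeds on chromosome 18 were left out. Mir1251, Mir382, Mir410, Mir485, Mir147, Mir3093, Mir7062 and Tnrc6a lay outside these rules and were named after their values were seen. So were the called loci of the seed families and of A230057D06Rik. The members and lists were chosen with earlier results of these data known.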

Additional observations from a re-analysis of the deposited data

Results flagged for a closer look

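Mir3101 differed between the days of CFA, which marked it for a closer look. CFA6D against CFA3D gave 5.06 on the log2 scale by a limma contrast (adjusted p = 6.37e-05), with 3 of 3 CFA6D libraries above all CFA3D libraries. All 3 CFA3D values were below the worth of 1 read across the locus. The locus met the filter on mean level only through CFA6D.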

How the results depend on the processing

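Counts of called loci rested on the scale and the filter. They are given in the order CFA3D, CFA6D, CFA6D against CFA3D and both days, with 19, 40, 26 and 20 as reported. A pseudocount of 1 gave 1, 2, 4 and 1, a mean of at least 1 FPKM 3, 9, 6 and 4, and log2(approximate reads + 1) 4, 14, 14 and 1. No fold-change minimum gave 41, 65, 47 and 52. Exon-overlapping loci alone gave 1, 5, 3 and 2, intronic loci alone 13 with both days, and loci above 0 in all libraries 11 on CFA3D and 13 with both days, as fewer loci were counted. Alternatives chosen after seeing the data were log2(mean read depth + 1), with 30 on CFA3D, and leaving out saline replicate 3 and CFA6D replicate 6 together, with 39 for both days, 27 relative to hosts and 0 host genes. Relative to hosts, in the same order and with 16, 27, 24 and 12 as reported, a pseudocount of 1 gave 1, 2, 4 and 1, and a mean of at least 1 FPKM 3, 6, 4 and 2. Host genes called numbered 1, 0 and 0 on CFA6D, against CFA3D and with both days at a pseudocount of 1, 5 against CFA3D at 0.01, and 1 with both days under a mean of at least 1 FPKM or no filter. The cause was not tested. Leaving out 1 replicate at a time gave 17 to 40, 34 to 49, 27 to 33 and 17 to 38 loci, 0 to 3, 1 to 5, 0 to 6 and 0 to 3 host genes, 14 to 28, 27 to 42, 21 to 30 and 14 to 30 loci relative to hosts, and 0, 0, 0 to 1 and 0 processing genes. Without saline replicate 1, 40 loci were called on CFA3D and 38 with both days, and 28 and 24 relative to hosts. Without saline replicate 3, 36 loci were called with both days and 30 relative to hosts, and without CFA6D replicate 5, 42 relative to hosts on CFA6D and 1 processing gene between the days. Relative to hosts with both days, leaving out saline replicate 2 gave 20, and CFA3D replicate 1, CFA6D replicate 4 or CFA6D replicate 6 gave 19 each. Taking coding hosts first changed no count of host genes or of loci relative to hosts. The numbers shared by saline and CFA3D replicates did not pair the libraries, since same-numbered libraries correlated at 0.04, -0.02 and 0.06 in their deviations. With the replicate block, 22 loci, 0 host genes, 14 loci relative to hosts and 0 processing genes were called on CFA3D. Of 636 recomputed differences of named loci, 510 kept their direction and side of the threshold, 126 lost a call and 0 reversed. Depth limits the loci, with 232 of 856 under 1 read.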

Other observations

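Short introns can form a hairpin from the intron itself. The 54 loci in introns of up to 150 bases had a median of 0.725 FPKM and 6.15% of host level, and the 173 in introns over 10000 bases had 0.455 FPKM and 8.92%. Their hairpins had a median GC content of 59.5% (46 loci with a RefSeq hairpin used) and 50.5% (111 loci). The 41 loci of the Sfmbt2 intron cluster had mean levels of 0.0165 to 0.169 FPKM, beside 0.628 FPKM for Sfmbt2. The cluster repeats loci of the Mir297, Mir466, Mir467 and Mir669 families. How reads that match several of them were counted is not given in the sources used here, and single values are uncertain to that extent.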
